A study of Homo sapiens with 30 samples.

Results

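The genes described here encode matrix, secreted and motility proteins linked to invasion in melanoma, and they were chosen by symbol. All 9 chosen genes (TNC, THBS1, CCN1, CCN2, FN1, TGFBI, BGN, LOXL2 and S100A4) are among the 16009 genes of the deposited table. They were picked with results of these data known, and the choice sets the abundance change between knockout and control apart from the change in antibody enrichment. Abundance changes of the 9 genes are therefore given as a description with no test. Tests are given for antibody enrichment, and for the immunoprecipitated libraries compared between knockout and control. The spread in these tests was estimated over all 12 libraries, inputs included. Since input libraries enter every enrichment value, the enrichment tests are not free of the values that may have led to the choice. Levels in the immunoprecipitated libraries follow abundance as well as enrichment, so tests on them are no independent check of an abundance change.

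The study profiled the capped 5' ends of mRNA in MEL624, a human melanoma cell line grown in culture. Control cells are wild-type cells that received a random single guide RNA (sgRNA). Knockout (KO) cells lack PCIF1, the enzyme that methylates an adenosine at the first transcribed position next to the cap (m6Am). The assay, m6Am-Exo-Seq, removes uncapped RNA fragments by exonuclease and then captures methylated start fragments with an antibody raised against m6A. Each genotype has 3 input libraries, made before the antibody step, and 3 immunoprecipitated (IP) libraries, so that there are 4 groups of 3. All IPs used here were made with the mouse monoclonal antibody numbered 4. The design text calls the samples biological replicates. Its first stage used 1 clonal KO line, and whether the libraries used here come from that line is not stated, so that an effect of the clone and of PCIF1 loss cannot be told apart.

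Values are log2 CPM (read counts scaled to library size) for the region around each gene's transcription start, or CPM after reversing the logarithm. Reads counted at start regions, a part of each library, ranged from 2836120 to 4094070 in inputs, from 4035815 to 4625190 in control IPs and from 1753164 to 2177874 in KO IPs, the shallowest group. Reads carry no molecular identifiers, so that they are not independent molecules. PCIF1 itself lay between 49.4 and 57.8 CPM in control inputs and between 70.4 and 78.0 CPM in KO inputs. Its start region can lie outside the edited part, so this checks nothing. Of 9 melanocytic markers fixed for the cell line, the table lists MITF alone, the master regulator of the lineage, with a mean of 10.3 CPM in control inputs and 10.1 CPM in KO inputs. Of the fibroblast, leukocyte, endothelial and keratinocyte markers it lists PDGFRB, at a mean of 15.5 CPM in control inputs and 9.62 CPM in KO inputs, and CD68, at 149 and 116 CPM. The melanoma label was thus checked against 1 lineage gene only.

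The extracellular matrix is a network of fibrous proteins, proteoglycans and matricellular proteins, the last of which signal to cells more than they bear load. Melanoma cells that lose their pigment-cell identity are known for secreting matrix proteins and for moving through tissue. Many such genes are targets of TGF-beta, or of the YAP and TEAD transcription factors that respond to stretch and adhesion. In bulk libraries, fewer cells of a kind and less RNA per cell cannot be told apart.

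PCIF1 methylates the first transcribed base only where that base is an adenosine, so the start sequences are shown first. RefSeq promoter windows on GRCh38.p14 matched 7 of the 9 symbols, and CCN1 and LOXL2 had no entry. Each line below runs from 60 bases before the start to 20 bases from the start on, 5' to 3' on the gene's strand. The single capital near the end is the first transcribed base, and the longer capitals mark GGAATG, the core bound by TEAD factors, in THBS1 and the TATA box TATAAA in CCN2 and S100A4.
THBS1: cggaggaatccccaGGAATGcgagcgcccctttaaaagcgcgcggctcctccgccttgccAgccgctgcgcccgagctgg
CCN2: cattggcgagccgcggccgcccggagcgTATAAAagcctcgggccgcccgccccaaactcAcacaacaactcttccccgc
S100A4: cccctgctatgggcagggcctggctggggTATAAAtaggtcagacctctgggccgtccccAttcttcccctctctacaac
TNC: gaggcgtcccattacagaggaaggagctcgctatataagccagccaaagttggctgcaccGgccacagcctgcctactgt
FN1: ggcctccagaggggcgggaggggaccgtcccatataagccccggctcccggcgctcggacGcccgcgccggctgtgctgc
TGFBI: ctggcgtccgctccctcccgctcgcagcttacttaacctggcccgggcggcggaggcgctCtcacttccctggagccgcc
BGN: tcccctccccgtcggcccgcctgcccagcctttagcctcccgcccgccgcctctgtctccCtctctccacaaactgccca

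These windows are chr15:39581019-39581098 on the plus strand (THBS1), chr6:131951353-131951432 on the minus strand (CCN2), chr1:153545787-153545866 on the minus strand (S100A4) and chr9:115118138-115118217 on the minus strand (TNC). The others are chr2:215436049-215436128 on the minus strand (FN1), chr5:136028928-136029007 on the plus strand (TGFBI) and chrX:153494920-153494999 on the plus strand (BGN). All 7 starts coincide with the start of the canonical GENCODE 44 transcript. THBS1, CCN2 and S100A4 begin with A, TNC and FN1 with G, and TGFBI and BGN with C. Most of these genes have several annotated starts, such as 15 for TNC and 5 for S100A4, and the start used by the authors is not given in the sources used here.

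Over the whole window of 250 bases before to 50 bases after the start, searched on both strands, TATAAA was found 31 bases before the start of S100A4 and 32 bases before that of CCN2. Of all 35116 promoters in the RefSeq table, 11.5% hold it. Only the exact letters TATAAA were sought, so TATA-like stretches such as tatataag in TNC and atataag in FN1 are neither marked nor counted. GGAATG was found 46 bases before the start of THBS1 and 95, 104 and 169 bases before that of CCN2, against 14.03% of all promoters with at least 1 copy. TGANTCA, the AP-1 motif, was in none of the 7 windows (7.71% of all promoters). CANGTG, an E-box of the kind MITF binds, was in the S100A4 window alone, against 42.0% of all promoters. A match of letters is a description and not a bound site.

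Setting the input change beside the IP change separated the genes by pattern. TGFBI and TNC were lower in the KO in inputs and IPs alike, with no called change in enrichment in the deposited scaling. S100A4 was lower in both kinds of library and by more in the IPs. BGN was higher in both. THBS1 and CCN2 were less enriched in KO cells, with inputs that overlapped between the genotypes.

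**Figure D1:**
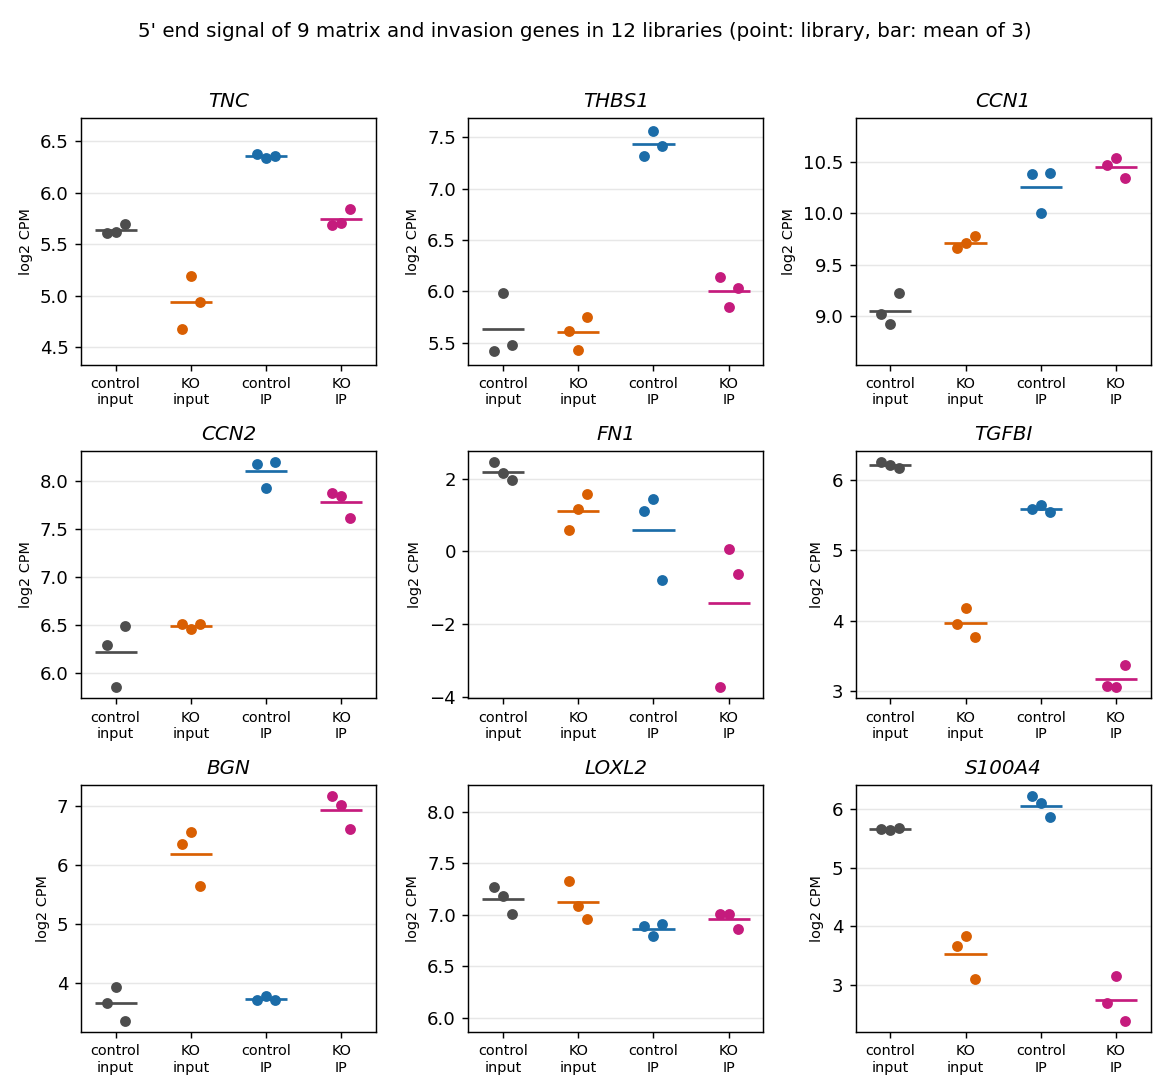
Log2 CPM (vertical axis) of the 9 genes in control input, KO input, control IP and KO IP libraries, with 1 point per library and a bar at the mean of 3; the vertical range differs between genes. BGN is the gene with KO libraries above all control libraries in inputs and IPs, while TGFBI and S100A4 show the opposite order, and the control IPs of THBS1 stand above the other 9 libraries.

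Among the matricellular genes, TNC encodes tenascin-C, a large glycoprotein of wound and tumour stroma. It gave 48.7, 49.1 and 51.7 CPM in control inputs, 25.6, 36.6 and 30.6 CPM in KO inputs, 83.2, 80.9 and 82.1 CPM in control IPs, and 51.6, 52.2 and 57.3 CPM in KO IPs. Every KO library lay below every control library of its kind. The input difference, KO minus control, was -0.70 ± 0.12 on the log2 scale (SE of the fit). TNC was enriched over input in control cells (0.72 ± 0.12, adjusted p = 5.01e-05) and in KO cells (0.81 ± 0.12, adjusted p = 1.20e-05). The difference in enrichment, control minus KO, was -0.09 ± 0.17 (adjusted p = 0.742), with a 95% interval from -0.45 to 0.28, and 0.47 (adjusted p = 0.0644) under ribosomal protein centring. The IPs differed between the genotypes by -0.61 ± 0.12 (adjusted p = 0.000413). In level, KO IPs and control inputs overlapped, and the other neighbouring groups did not. The long non-coding gene DELEC1 lies on the opposite strand at the TNC start, and strand handling in the counting is not given, so reads of the 2 genes cannot be told apart.

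THBS1 encodes thrombospondin 1, which binds CD36, CD47 and integrins and activates latent TGF-beta. Its inputs were alike, with 42.8, 63.5 and 44.7 CPM in control and 49.1, 43.1 and 54.0 CPM in KO cells. The IPs were not, with 160, 188 and 170 CPM in control and 70.7, 57.5 and 65.3 CPM in KO cells. Control IPs stood above all other libraries, and the KO IPs reached into the range of the inputs of control cells. Enrichment was 1.80 ± 0.14 in control cells (adjusted p = 1.27e-09) and 0.41 ± 0.14 in KO cells (adjusted p = 0.0175). The latter call was lost without KO input 2 (adjusted p = 0.0905) or KO IP 1 (adjusted p = 0.0688), libraries being named by group and column number. The change in enrichment was 1.39 ± 0.20, or 2.63-fold (adjusted p = 3.02e-05). It stayed between 1.29 and 1.57 with any 1 library left out, at adjusted p up to 0.000223. The input difference was -0.03 ± 0.14, with a 95% interval from -0.32 to 0.26, and 0.15 without control input 2. FSIP1, on the opposite strand, overlaps the THBS1 gene with a start 201762 bases away. It had an input difference of -2.04 at a mean of only 0.63 log2 CPM, so that this value is uncertain.

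CCN1 and CCN2 encode 2 related matricellular proteins that bind integrins, and both genes are textbook targets of YAP and TEAD. CCN1 gave 518, 485 and 597 CPM in control inputs and 808, 835 and 878 CPM in KO inputs. Its IPs gave 1333, 1028 and 1344 CPM in control and 1419, 1484 and 1302 CPM in KO cells. The inputs did not overlap between genotypes, with a difference of 0.66 ± 0.11, whereas the IPs did. The IP difference of 0.19 ± 0.11 was not called (adjusted p = 0.150), with a 95% interval from -0.03 to 0.42, and turned to -0.32 (adjusted p = 0.0454) when libraries were centred on ribosomal protein mRNAs. CCN1 was enriched by 1.21 ± 0.11 in control cells (adjusted p = 9.47e-09) and by 0.74 ± 0.11 in KO cells (adjusted p = 7.15e-06). Its change in enrichment, 0.47 ± 0.15, was called (adjusted p = 0.0257). It was lost without control input 1 (adjusted p = 0.0554), control input 2 (0.0829), control IP 1 (0.0729) or control IP 3 (0.0781).

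CCN2 gave 78.5, 57.8 and 90.0 CPM in control inputs, 91.3, 87.8 and 91.3 CPM in KO inputs, 291, 244 and 294 CPM in control IPs, and 235, 231 and 196 CPM in KO IPs. Inputs overlapped, and the KO IPs lay just below the control IPs. Its input difference was 0.28 ± 0.13, and 0.10 without control input 2, the lowest library. CCN2 was enriched by 1.89 ± 0.13 in control (adjusted p = 2.15e-10) and by 1.29 ± 0.13 in KO cells (adjusted p = 5.19e-08). The change in enrichment was 0.60 ± 0.18 (adjusted p = 0.0181), and 0.42 (adjusted p = 0.0581) without control input 2. The IP difference of -0.32 ± 0.13 was called (adjusted p = 0.0458) but lost with libraries centred on their medians (adjusted p = 0.0586) and in 7 of the 12 fits with 1 library left out. Those were the fits without control input 1 (0.0528), KO input 1 (0.0544), KO input 2 (0.0564), control IP 1 (0.137), control IP 3 (0.146), KO IP 2 (0.0574) and KO IP 3 (adjusted p = 0.160). The non-coding gene LINC01013 lies on the opposite strand at the CCN2 start.

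FN1 encodes fibronectin, the glycoprotein on which many cells assemble their matrix, and was near the lower limit of the assay. It had 20, 19 and 13 reads in control inputs, 5, 8 and 9 in KO inputs, 9, 10 and 2 in control IPs, and 0, 2 and 1 in KO IPs. KO inputs lay below control inputs, and the IPs overlapped. KO inputs differed from control by -1.07 ± 0.79, with a 95% interval from -2.73 to 0.59. FN1 was called depleted in KO cells (-2.54 ± 0.79, adjusted p = 0.00967) at KO IP counts of 0 to 2 reads. That call was lost without KO IP 1 (adjusted p = 0.0611). In control cells the value was -1.59 ± 0.79 and not called (adjusted p = 0.0973). It was called with a prior count of 2 (adjusted p = 0.0137), with limma-voom (0.0027) and without KO IP 1 (0.0192). The IP difference was called as well (adjusted p = 0.0419). It was lost when weighted by recovered reads with limma-voom (adjusted p = 0.162), in the fit of the 6 IP libraries alone (adjusted p = 0.147), and in 7 of the 12 fits with 1 library left out, at adjusted p up to 0.261. Those were the fits without any of the 3 control inputs, KO input 2, control IP 1, control IP 2 or KO IP 1. A change in enrichment was not detectable at this depth, with a 95% interval from -1.40 to 3.3. FN1-DT, a divergent non-coding gene, lies at the same start on the other strand.

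TGFBI encodes a secreted adhesion protein induced by TGF-beta. It gave 75.9, 74.3 and 72.2 CPM in control inputs and 15.6, 18.2 and 13.7 CPM in KO inputs. The IPs gave 48.1, 50.2 and 46.5 CPM in control and 8.41, 8.35 and 10.4 CPM in KO cells. The 4 groups did not overlap, in the order control input, control IP, KO input and KO IP. The input difference was -2.24 ± 0.14, a 4.71-fold lower level in the KO. In the IPs TGFBI fell by 2.42 ± 0.14 on the log2 scale (adjusted p = 1.69e-10). IP levels also carry the abundance change, so this test is not independent of the input difference. Its IPs lay below its inputs in control cells (-0.62 ± 0.14, adjusted p = 0.00112) and in KO cells (-0.80 ± 0.14, adjusted p = 7.83e-05), the former turning to 0.54 and the latter losing its call (-0.21, adjusted p = 0.242) with ribosomal protein centring. The change in enrichment was 0.19 ± 0.20 (adjusted p = 0.537), with a 95% interval from -0.24 to 0.61. Under that centring it was called, at 0.74 (adjusted p = 0.00726).

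BGN encodes biglycan, a small leucine-rich proteoglycan that binds collagen and TGF-beta. It gave 12.7, 15.2 and 10.3 CPM in control inputs and 81.3, 94.0 and 50.1 CPM in KO inputs. The IPs gave 13.1, 13.7 and 13.02 CPM in control and 143, 129 and 98.0 CPM in KO cells. Every KO library was above every control library. In inputs the difference was 2.53 ± 0.20, a 5.77-fold higher level, and BGN rose in the IPs by 3.20 ± 0.20 (9.18-fold, adjusted p = 2.73e-10). It was enriched in KO cells (0.75 ± 0.20, adjusted p = 0.00308) and at 0.08 ± 0.20 in control cells (adjusted p = 0.758), which became 1.24 (adjusted p = 6.39e-06) under ribosomal protein centring. The difference between the genotypes, -0.67 ± 0.28, was not called (adjusted p = 0.0826). It was called without control input 3 (adjusted p = 0.0486), KO input 2 (0.035) or KO IP 3 (adjusted p = 0.0320), and when only genes averaging 3 log2 CPM or more were tested (adjusted p = 0.0465). Under ribosomal protein centring it was -0.11 (adjusted p = 0.775). HAUS7, a gene on the opposite strand whose start lies 536 bases from that of BGN, had an input difference of 0.34 and an IP difference of 0.43.

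LOXL2 encodes a lysyl oxidase that cross-links collagen. It gave 155, 145 and 129 CPM in control inputs, 161, 136 and 125 CPM in KO inputs, 118, 111 and 120 CPM in control IPs, and 129, 129 and 116 CPM in KO IPs. Each group overlapped with its neighbour in level. The input difference was -0.03 ± 0.11 (95% interval -0.25 to 0.19) and the IP difference 0.09 ± 0.11 (adjusted p = 0.483, 95% interval -0.13 to 0.31), which became -0.42 under ribosomal protein centring. It was slightly depleted in control cells (-0.29 ± 0.11, adjusted p = 0.0255), a call lost without control input 1 (adjusted p = 0.116), control input 2 (0.0722) or control IP 2 (0.0911) and with libraries centred on their medians (adjusted p = 0.151). Under ribosomal protein centring the value turned to 0.87. The change in enrichment was -0.12 ± 0.15 (adjusted p = 0.589, 95% interval -0.43 to 0.19), or 0.44 (adjusted p = 0.0325) under that centring. ENTPD4 overlaps LOXL2 on the same strand, with a start 53575 bases away, and had an input difference of 0.09.

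S100A4 encodes a small calcium-binding protein that binds non-muscle myosin and is linked to cell motility and metastasis. It gave 50.3, 49.8 and 50.9 CPM in control inputs and 12.7, 14.1 and 8.52 CPM in KO inputs. The IPs gave 74.6, 68.6 and 58.0 CPM in control and 6.45, 8.84 and 5.23 CPM in KO cells, the last from 13, 18 and 9 reads. Control IPs lay above control inputs, while in KO cells the order was the opposite with overlap. The input difference was -2.13 ± 0.20, a 4.37-fold lower level in the KO. In the IPs S100A4 fell by 3.32 ± 0.20 on the log2 scale (adjusted p = 2.16e-10). Enrichment was 0.41 ± 0.20 in control cells (adjusted p = 0.0953) and -0.79 ± 0.20 in KO cells (adjusted p = 0.00229, or 0.432 under ribosomal protein centring). The control value was called with libraries centred on their medians (0.50, adjusted p = 0.0414), with limma-voom (0.41, adjusted p = 0.00398) and under ribosomal protein centring, where it was 1.56 (adjusted p = 4.72e-07). Its change in enrichment was 1.19 ± 0.29, or 2.29-fold (adjusted p = 0.00364). With 1 library left out it lay between 1.02 and 1.41, at adjusted p up to 0.0147. The gene S100A3 lies on the same strand inside the S100A4 gene model (153543613 to 153550136 on chromosome 1, hg38). S100A3 had an input difference of -1.57 and an IP difference of -2.44, and reads of the 2 genes are uncertain where transcripts overlap.

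**Figure D2:**
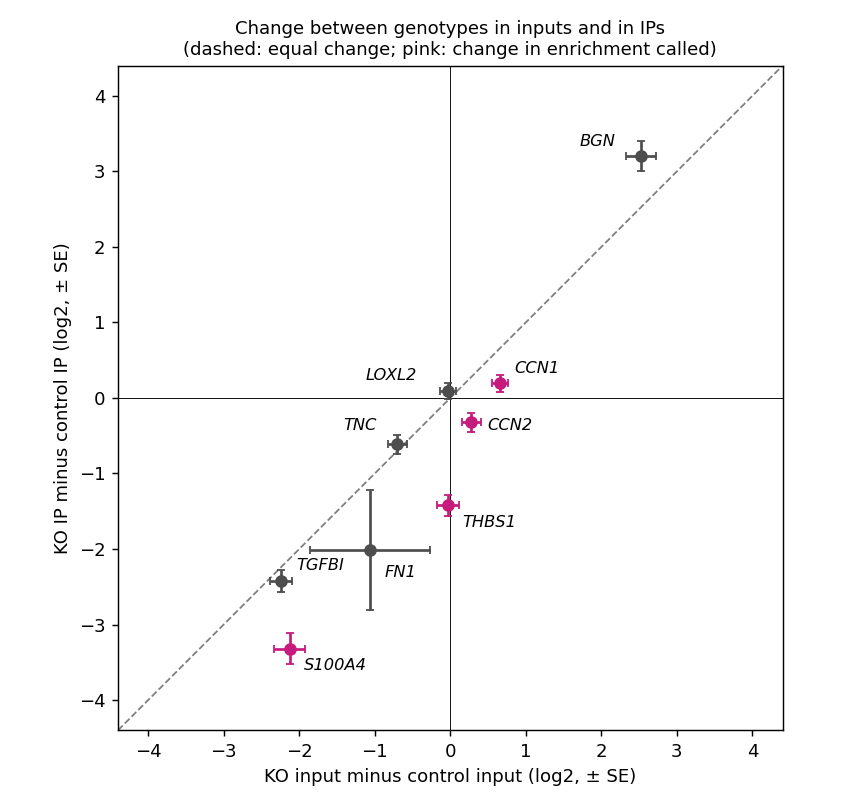
Difference between KO and control in the IPs (vertical, log2, ± SE) against the same difference in the inputs (horizontal, log2, ± SE) for the 9 genes; the dashed line marks equal change, and pink marks a called change in enrichment. TGFBI (-2.24 and -2.42) and TNC (-0.70 and -0.61) lie near the line, whereas THBS1 (-0.03 and -1.42) and S100A4 (-2.13 and -3.32) lie below it.

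The fit called 5.56% of all genes higher and 5.67% lower in KO inputs at an adjusted p under 0.05, 11.2% in all. No input calls are given for the 9 genes, since their choice may rest on these values. Inputs of the 2 genotypes did not overlap for 6 of the 9 genes, against 31.7% of all genes. Of the 6, BGN and CCN1 were higher in KO cells, and TGFBI, S100A4, TNC and FN1 were lower. Nothing is read from this count, for the same reason. In the IPs the fit called BGN higher and 6 genes lower (S100A4, TGFBI, THBS1, TNC, FN1 and CCN2). Over all genes it called 23.0% higher and 26.0% lower in the IPs, 49.0% in all. The IPs did not overlap for 6 of 9 genes, against 54.6% of all genes. The count of non-overlapping genes in the IPs was thus near the background.

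In control cells 4 of the 9 genes were enriched (CCN2, THBS1, CCN1 and TNC) and TGFBI and LOXL2 were depleted, against 27.7% enriched and 28.2% depleted of all genes, 55.9% in all. Centring on ribosomal protein mRNAs moved this split to 8 and 0, and that of all genes from 4429 and 4515 to 10034 and 970. In KO cells 5 genes were enriched (the same 4 and BGN) and 3 depleted (TGFBI, S100A4 and FN1), against 28.4% and 31.0% of all genes, 59.4% in all. Under that centring the split was 6 and 1, and 7240 and 2415 over all genes. It moved the median of all genes from -0.01 to 1.14 in control and from -0.07 to 0.53 in KO cells, so that directions of enrichment hold for the deposited scaling.

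A change in enrichment was called for 4 of the 9 genes (THBS1, S100A4, CCN2 and CCN1), all less enriched in KO cells, and for 0 in the other direction. Over all genes 15.8% were less and 13% more enriched in KO cells, 28.8% in all. All genes include weakly expressed ones, and shares among expressed protein-coding genes are given by first base below. The median over the 9 genes was 0.47, against 0.06 over all genes. With 1 library left out the count ranged from 2 genes (without control input 2) to 5. Under ribosomal protein centring, which moved the median of all genes to 0.61, the count was 6, with 5958 genes less and 797 more enriched in KO cells over the table, in place of 2522 and 2083.

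**Figure D3:**
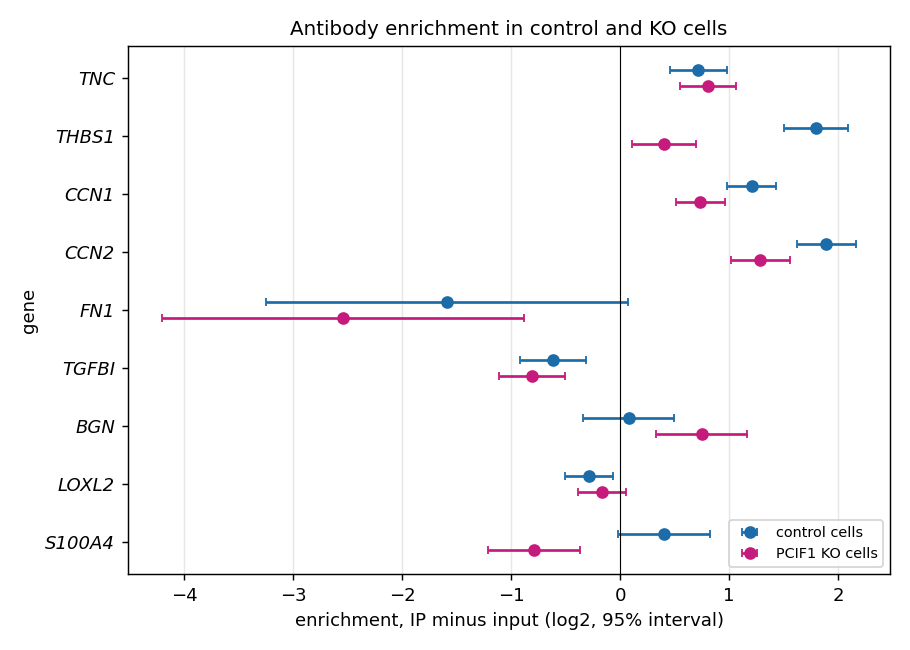
Enrichment by the antibody, IP minus input (horizontal, log2, with 95% intervals of the fit), in control (blue) and KO cells (pink) for the 9 genes on the vertical axis. The intervals of THBS1 (1.80 and 0.41) lie apart and those of TNC (0.72 and 0.81) overlap; TGFBI and LOXL2 turn positive in control cells under ribosomal protein centring.

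Set beside the first bases printed above, the 3 genes that begin with A (THBS1, CCN2 and S100A4) are all among the 4 with a called loss of enrichment. The 4 that begin with G or C gave changes of -0.09 (TNC), 0.95 ± 1.12 (FN1), 0.19 (TGFBI) and -0.67 (BGN), with no call. This split holds for the deposited scaling. Under ribosomal protein centring TGFBI was called too (0.74, adjusted p = 0.00726), TNC gave 0.47 (adjusted p = 0.0644), and FN1 and BGN were not called. Among protein-coding genes with a RefSeq start and a mean level of 3 log2 CPM or more, the median change in enrichment was 0.39 for the 3172 genes that begin with A. It was 0.08 for 2929 genes with G and -0.08 for 898 genes with C. Of the genes that begin with A, 36.4% had a called loss, against 19.4% with G and 16.3% with C. The A-starting genes of the present set therefore lay above the median of their class (0.60, 1.19 and 1.39). With 7 genes this is a description only, and control enrichment did not follow the base alone: TNC, with G, was enriched by 0.72.

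The genes next to each member on the chromosome were compared as well. Over all genes 5.56% were called higher and 5.67% lower in KO inputs. Within 5 Mb of TGFBI, 97 other measured genes had a median input difference of -0.04, with 2 called higher and 1 lower. Around BGN the median was 0.04 over 72 genes, with 9 called higher and 2 lower. For 157 genes around S100A4 it was -0.11, with 2 called higher and 12 lower. Around TNC the median was 0.11 over 35 genes, with 1 called higher and 3 lower. Around FN1, 41 genes had a median of -0.15, with 6 called lower and 1 higher.

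For each gene with a mean log2 CPM of at least 1, the 3 genes with the most similar log2 CPM over the 12 libraries were sought among 9611 named genes averaging 3 log2 CPM or more. FN1 lay under the former limit. The libraries form 4 groups, so a high Pearson r mainly states the same order of groups. The closest to S100A4 was RPS6KA2 (r = 0.994), a kinase of the ribosomal S6 kinase family, with an input difference of -1.36 and an IP difference of -2.43. The closest to BGN was RAB17, a small GTPase (r = 0.979), at 3.53 and 3.55, followed by the pigment-cell transcription factor gene PAX3 (r = 0.976), at 0.96 and 0.96. TGFBI was closest to NDUFV2 (r = 0.987), at -0.84 and -1.10. CCN2 was closest to YBX3 (r = 0.989), and the growth arrest gene GADD45A also ranked among its 3 (r = 0.984). CCN1 was closest to KLHL29 (r = 0.980), THBS1 to CDC5L (r = 0.980), TNC to DDB2 (r = 0.972) and LOXL2 to PIGV (r = 0.915), the lowest of the leading values.

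The 8 lists of other genes from the same pathways, 190 genes in all, were set beside these results, and 142 of them were in the table. In the inputs 9 were higher and 26 lower in KO cells, against 5.56% and 5.67% of all genes. A change in enrichment was called for 39 less and 9 more enriched in KO cells, against 15.8% and 13%, and for 82 and 1 under ribosomal protein centring. The lists were drawn up with earlier results of these data known, so the counts are a description. The shares over all genes are also the background for the counts of each list below. All genes include weakly expressed ones. Among the expressed protein-coding genes described above, 36.4% with a first base A, 19.4% with G and 16.3% with C had a called loss of enrichment. A larger count of losses in the lists than over all genes is therefore not read as a trait of these pathways.

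Among 24 measured proteases and inhibitors, 3 were higher and 6 lower in KO inputs. Of those higher, ADAMTS1, a matrix metalloprotease gene, rose by 1.08 ± 0.18 (adjusted p = 0.000488). Of those lower, MMP19 fell by 1.43 ± 0.41 (adjusted p = 0.0292), a call that held in 7 of the 12 fits with 1 library left out. In the TGF-beta pathway 2 genes were higher and 2 lower of 16. The ligand gene TGFB1 fell from 57.5 ± 2.67 to 27.6 ± 5.13 CPM (-1.08 ± 0.16, adjusted p = 0.000105).

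Of 21 other matrix glycoprotein genes, 1 was higher and 6 were lower in KO inputs. The laminin subunit gene LAMB3 fell by 1.93 ± 0.33 (adjusted p = 0.000552) and ECM1 fell by 1.39 ± 0.18 (adjusted p = 2.40e-05). Matrix receptors had 0 higher and 5 lower of 23, among them ITGB4, an integrin subunit of hemidesmosomes, which fell from 121 ± 11.6 to 60.7 ± 7.66 CPM (adjusted p = 8.97e-06). Of 10 proteoglycan genes 1 was higher and 2 were lower. The syndecan gene SDC3 rose from 5.86 ± 0.479 to 20.5 ± 3.10 CPM (1.80 ± 0.29, adjusted p = 0.000308). VCAN, the large proteoglycan versican, fell by 1.15 ± 0.27 (adjusted p = 0.00855), and the perlecan gene HSPG2 was the other called lower, a call lost without control input 1, control input 2 or KO input 2. Collagens and their processing enzymes had 1 higher and 3 lower of 21, and the other S100 genes 0 higher and 2 lower of 7. The 7 include S100A3 (-1.57), whose input call held in 11 of the 12 fits with 1 library left out (adjusted p up to 0.0503). S100A3 lies inside the S100A4 gene model, so that it is not a separate view of the family.

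The YAP and TEAD pathway had 1 gene higher and 0 lower of 20 in KO inputs, against 5.56% and 5.67% of all genes, so the higher count was near the background. That gene was ANKRD1, a common reporter of YAP activity, which rose by 0.78 ± 0.10 (adjusted p = 2.56e-05). Input differences were 0.66 for CCN1 and 0.28 for CCN2, whose inputs overlapped between the genotypes. The other measured genes of the list were not called, and YAP activity was not tested. The medians of input change were 0.01 in this list and 0.07 in the TGF-beta pathway. They were between -0.26 (other matrix glycoproteins) and -0.13 (proteases and inhibitors) in the other 6 lists, against -0.02 over all genes.

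For the change in enrichment the matrix glycoproteins had 6 genes less and 0 more enriched in KO cells. Proteases and inhibitors had 8 and 1, matrix receptors 7 and 1, the YAP and TEAD pathway 6 and 2, collagens and processing 5 and 2, proteoglycans 3 and 0, and the other S100 genes 2 and 0. The TGF-beta pathway had 2 and 3, with a median of -0.13 that became 0.43, with 7 and 0, under ribosomal protein centring. TIMP3, an inhibitor of metalloproteases bound to matrix, lost enrichment by 1.41 ± 0.15 (adjusted p = 9.89e-07). LAMA5, a laminin chain gene, lost 1.42 ± 0.17 (adjusted p = 5.11e-06).

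**Figure D4:**
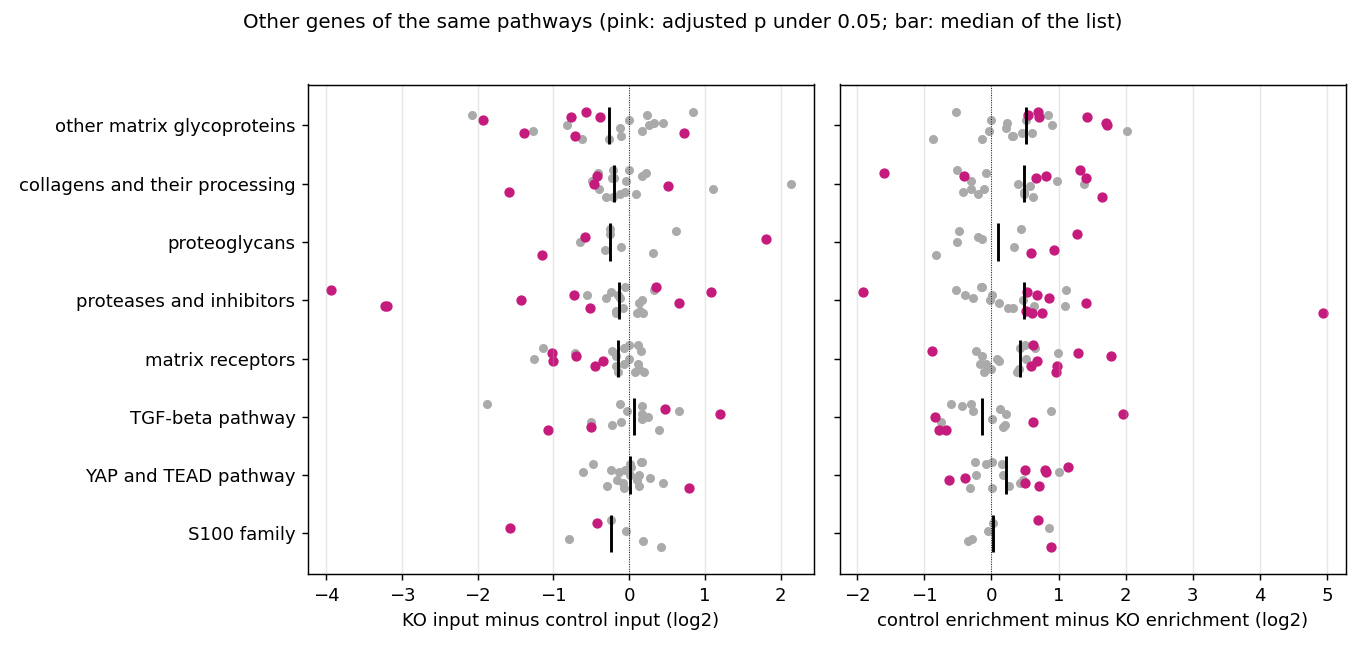
Input difference, KO minus control (left, log2), and change in enrichment, control minus KO (right, log2), for every measured gene of the 8 related lists on the vertical axis; pink points passed an adjusted p under 0.05 and bars mark the median of a list. In the left panel the medians lie between -0.26 (other matrix glycoproteins) and 0.07 (TGF-beta pathway), and in the right panel between -0.13 (TGF-beta pathway) and 0.51 (other matrix glycoproteins).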

How the data were processed

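Of 30 samples, the 12 second-stage libraries were used, and the 18 first-stage libraries were not analysed here. The authors deposited log2 CPM per gene start. The submitters' processing notes name hg38 and, without role or order, edgeR 3.12.1, R 3.3.3, featureCounts, HISAT2 2.0.4, deepTools 3.0.2 and SAMtools 1.7. Window, annotation and strand setting of the counting are not stated. Reversing the scale with a mean added count of 0.25 gave whole reads (tolerance 0.01), hence the depth. Replicates differed by more than sampling noise in chi-square tests.

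Table columns were assigned to groups only, since their numbers are not tied to the labels' letters. The model, in limma 3.58.1 under R 4.3.3, had 4 group means, a variance trend and no block, over 12 libraries. Its p-values were Benjamini-Hochberg adjusted over 16009 genes and called under 0.05, and it was tested on simulated data. The members and lists were chosen with earlier results of these data known.

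The rule for list genes allowed, per list, up to 5 with the smallest adjusted p in change of enrichment and up to 5 with the largest input change, at a mean log2 CPM of at least 1. The text names a part of these, picked after their values were seen: for enrichment the first 2 of a list, and for inputs genes whose call held with each library left out, unless the loss is stated. Alternatives were centring on medians or on 79 ribosomal protein mRNAs, a prior count of 2, a mean of at least 3, subsets of libraries, each library left out, and, added after seeing the data, limma-voom on recovered reads and a block on the column number. One list gene is not reported here.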

Additional observations from a re-analysis of the deposited data

Results flagged for a closer look

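The following genes were picked out because their enrichment by the antibody differed between control and KO cells by the test of the difference itself (limma, adjusted p under 0.05, control minus KO, log2). Among the 9 genes these were THBS1 (1.39), S100A4 (1.19), CCN2 (0.60) and CCN1 (0.47). S100A4 and CCN1 differed in inputs too, and the KO IPs of S100A4 held 9 to 18 reads. Among related genes, less enrichment in KO cells was found for the laminin and agrin genes LAMA5 (1.42) and AGRN (0.54), the lysyl hydroxylase genes PLOD1 (1.41) and PLOD3 (1.32), and the proteoglycan genes SDC4 (0.93) and SRGN (1.28). It was also found for TIMP3 (1.41), ITGB5 (0.96), LTBP1 (1.96, mean log2 CPM 1.87), WWTR1 (0.80), AMOTL2 (1.14), S100A2 (0.88) and S100A6 (0.70). ADAMTS1 (-1.91), PXN (-0.88) and SMAD2 (-0.84) were more enriched in KO cells. The calls of PXN (-0.32, adjusted p = 0.0981) and SMAD2 (-0.28, adjusted p = 0.159) were lost when libraries were centred on ribosomal protein mRNAs. Of these related genes, ADAMTS1 (1.08) and TIMP3 (0.66) also had called input changes, as did LTBP1 and LAMA5, whose input calls were lost when some single libraries were left out, control input 1 among them.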

How the results depend on the processing

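The numbers of the table's columns are not tied to the labels' replicate letters, so the main fit has no block. Input and IP libraries with the same column number deviated together with correlations of 0.16, 0.089 and 0.23 in control and 0.20, 0.070 and 0.24 in KO cells, and each library correlated best with its own number, a hint from the data and not the design. With that number as a replicate block within genotype, chosen after seeing the data, 5 members in place of 4 had a called change in enrichment, as BGN was called (-0.67, adjusted p = 0.0134). S100A4 was called in control enrichment (adjusted p = 0.0293), and the calls on the other members' enrichment did not move. Input and IP changes cannot be fitted with this block. The planned count test with edgeR was not run, since the deposited values are log2 CPM, and limma-voom took its place. Called genes in input change numbered 1798, and between 1177 (without control input 3) and 2201 with 1 library left out. With 1 library left out, members with a called change in enrichment numbered between 2 (without control input 2) and 5, and under ribosomal protein centring 6. The other counts of called members and genes stayed within 1.5 times the values given. Values called in either fit turned sign under centring on ribosomal protein mRNAs for control enrichment of TGFBI (0.54) and LOXL2 (0.87), KO enrichment of LOXL2 (0.43), its change in enrichment (0.44), and the IP change of CCN1 (-0.32) and LOXL2 (-0.42). Values near 0 with no call also changed sign in some fits, such as the input differences of THBS1 and LOXL2 and the change in enrichment of TNC. The cause was not tested. Depth limits FN1 most, with 0 to 2 reads in the KO IPs, and the KO IP values of S100A4 and TGFBI, with 9 to 18 reads.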
